A study of Mus musculus with 2 samples.

Results

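C1q-high macrophages that carry Mgl2 transcripts numbered 388 of the 69306 cell barcodes of the series, 296 in the control library (Ctrl) and 92 in the library of treated tumours (BiDT). They were chosen on the raw counts of unique molecular identifiers (UMIs, tags that count each captured transcript once). A member had at least 500 UMIs, at most 10% mitochondrial UMIs, at least 10 UMIs of C1qa, C1qb and C1qc together, at least 1 UMI of Csf1r and at least 1 of Mgl2. It had at most 2 UMIs of Arg1, at most 2 of Retnla, Ear2 and Fcrls together, at most 2 of the cycle genes Mki67, Top2a, Birc5 and Pclaf together, at most 1 of Ctsk and 0 of Cd3d, Cd3e and Cd3g. Both libraries hold live leukocytes, sorted for CD45, from MC38 tumours on day 19 after inoculation, MC38 being a colon carcinoma line of the mouse. In each library cells of 5 biological replicates had been pooled, and the labels put both in batch 1. The labels do not spell out BiDT, the title of the series speaks of a fusion protein of anti-TIM3 and IFN, and what the control animals received, their strain, sex and age and the treatment schedule are not given in the sources used here.

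C1q is the recognition subunit of the classical complement pathway, and macrophages are among its chief makers in tissue. Mgl2 encodes CD301b, a C-type lectin for galactose-type sugars that interleukin 4 induces and that is used to mark alternatively activated macrophages and a set of type 2 dendritic cells. Csf1r is the receptor for the growth factor on which most macrophages depend. Cells that express Mgl2 in mouse tissue are also known as a source of Ccl17 and Ccl22, ligands of the receptor CCR4, which is carried by regulatory and type 2 helper T cells.

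Each group was 1 library, so the differences below carry no test and no check against replicates. Intervals allow for the error of counting alone. There were 34310 barcodes in Ctrl, with a median of 4126 UMIs, and 34996 in BiDT, with a median of 2652. A total of 713 barcodes occurred in both libraries, and 4 Ctrl and 1 BiDT members bore such a barcode. Members had medians of 6249.5 UMIs in Ctrl and 4476.5 in BiDT, and summed to 2060307 and 456869 UMIs. Levels are given as CPM, the UMIs of a gene summed over the cells of a library and scaled in the usual way to all UMIs of those cells. The C1qa, C1qb, C1qc, Csf1r, Mgl2, Arg1 and other genes of the rule chose the cells, so their values are a description. Before the last 2 steps of the rule 3832 Ctrl and 1872 BiDT cells were left, at most 2 UMIs of Arg1 left 643 and 674, called C1q-high macrophages here, and at least 1 UMI of Mgl2 left the members. Just inside the Arg1 limit, at 1 to 2 UMIs, lay 198 Ctrl and 52 BiDT cells, and just outside, at 3 to 4, lay 138 and 17. Just inside the C1q limit, at 10 to 11 UMIs, lay 27 and 8 cells, and at 8 to 9 UMIs lay 18 and 4. At the Mgl2 limit 87 and 55 members had exactly 1 UMI, and 347 and 582 cells had 0.

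Macrophage genes outside the rule were present, but 2 of the 5 given marker genes, Mrc1 and Fn1, did not set the members clearly apart. Apoe, a lipid carrier made by macrophages, stood at 1003 CPM in Ctrl and 2119 CPM in BiDT members, against 88.4 and 47.3 CPM in dendritic cells chosen by Flt3 and Cd209a. Mertk, a receptor for the uptake of dead cells, stood at 31.1 and 105 CPM, against 2.72 and 0 CPM in those dendritic cells. Lyz2, lysozyme, separated the cells less, at 2959 and 1780 CPM against 2411 and 1006 CPM. The list of 14 macrophage markers holds C1qa, C1qb, C1qc, Csf1r and Mgl2 of the rule, so its sum of 12837 and 17311 CPM was in large part set by the choice of cells. Adgre1, which encodes F4/80, was low at 60.7 and 188 CPM, below the 124 and 221 CPM of C1q-high macrophages without Mgl2. The defining genes of type 2 dendritic cells were near 0, Flt3 at 2.91 and 2.19 CPM and Cd209a at 5.82 and 0 CPM. The comparison dendritic cells had been picked on these same genes. Their Flt3 (272 and 304 CPM) and Cd209a (943 and 1358 CPM) were therefore high by choice, and the contrast does not tell the members from dendritic cells. Mrc1, the mannose receptor CD206, stood at 226 and 331 CPM, against 199.5 and 238 CPM without Mgl2 and 554 and 430 CPM in cells that met the rule up to Arg1 but had at least 3 Arg1 UMIs. Fn1, fibronectin, stood at 530 and 123 CPM, against 636 and 87.8 CPM without Mgl2 and 2739 and 467 CPM in the Arg1-high cells. Mrc1 thus lay above the cells without Mgl2 in both libraries, by less than 1.5-fold, and below the Arg1-high cells. Fn1 lay above the cells without Mgl2 in BiDT alone. The cells are called here by the genes of the rule. CD8 T cells, which should lack fibronectin transcripts, stood at 215 and 60.3 CPM for Fn1.

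Mgl2 was found in fewer of the C1q-high macrophages of the BiDT library, and at fewer copies. The share of C1q-high macrophages among filtered cells (500 UMIs, 10% mitochondrial) was 1.97% in Ctrl (exact 95% binomial interval 1.82 to 2.13%) and 1.96% in BiDT (1.81 to 2.11%). Of these, 46.0% (42.1 to 49.98%) carried Mgl2 in Ctrl and 13.7% (11.1 to 16.5%) in BiDT. As a share of filtered cells, members stood at 0.908% (0.808 to 1.02%) and 0.267% (0.216 to 0.328%). The libraries differ in depth, so each C1q-high cell was also thinned to 1000 UMIs, which left out 0 of the 643 and 0 of the 674 cells, and Mgl2 was then found in 23.2% and 5.04%. In CD8 T cells, which do not express Mgl2, a UMI of it was found in 9.70% of Ctrl and 3.92% of BiDT cells, whose median UMIs were 3390 and 3357.5, and in 3.40% and 1.29% after thinning. The C1q-high share thus lay above the CD8 share in both libraries, and the CD8 share itself was higher in Ctrl. With at least 2 UMIs the shares were 32.5% and 5.49% in C1q-high macrophages and 2.08% and 0.539% in CD8 T cells. Exactly 1 UMI was found in 13.5% and 8.16% of C1q-high macrophages, closer to the CD8 shares with at least 1. The part of free RNA among members with 1 UMI was not tested. Among Arg1-high macrophages the share with Mgl2 was 64.9% and 23.9%. Flt3 and Cd209a dendritic cells numbered 116 and 30, of which 52 and 9 carried Mgl2, at 759 and 689 CPM.

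**Figure D1:**
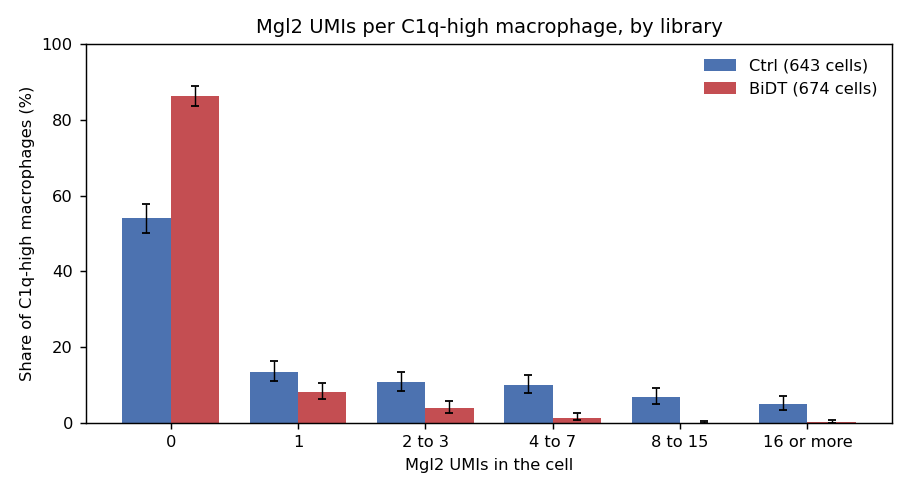
Share of C1q-high macrophages (vertical axis, %) by the number of Mgl2 UMIs in the cell (horizontal axis) in the Ctrl and BiDT libraries, with exact 95% binomial intervals as error bars. Cells with 0 UMIs make up 53.97% of Ctrl and 86.4% of BiDT cells, and cells with 8 to 15 UMIs 6.84% and 0% (0 of 674 cells, which at 3 counts allows up to 0.445%).

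Members differed widely in Mgl2 itself. In Ctrl the median was 3 UMIs and the highest cell had 87, and in BiDT the median was 1 and the highest cell 18. Of the Ctrl members, 87 had 1 UMI, 69 had 2 to 3 and 140 had 4 or more (47.3%, 41.5 to 53.2%). Of the BiDT members, 55 had 1, 27 had 2 to 3 and 10 had 4 or more (10.9%, 5.34 to 19.1%). The Ctrl cells with 4 or more were also the deepest, with a median of 7956.5 UMIs against 4454 for those with 1, and they gave 1189768 of the 2060307 member UMIs of that library. The summed Ctrl values below are therefore weighted towards cells rich in Mgl2, the BiDT values towards cells with 1 UMI, and for genes and lists that depend on it the ratio is also given within the 3 ranges of Mgl2. BiDT counts in the range with 4 or more come from 10 cells.

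Ctrl members rich in Mgl2 also held most of the Ccl17, Plet1 and Cst3 transcripts and less of several macrophage genes. Ccl17 stood at 279, 243 and 2706 CPM in Ctrl members with 1, 2 to 3 and 4 or more Mgl2 UMIs, and 3219 of its 3447 UMIs lay in the last range, where 93 of 140 cells had at least 1. Plet1, a surface protein known from progenitor cells, stood at 37.3, 67.5 and 438 CPM over the same ranges, Cst3 (cystatin C, high in dendritic cells) at 2235, 3347 and 6766 CPM, and H2-DMb2, a chain of the class II loading factor, at 92.2, 98.8 and 307 CPM. Lyz2, lysozyme, went the other way, at 3637, 3605 and 2474 CPM, and Apoe, the lipid carrier of macrophages, stood at 1150, 1870 and 645 CPM. Kit, the stem cell factor receptor, stood at 61.4 CPM in the range with 4 or more, against 15.4 CPM with 1. Ccr7, the receptor that guides cells to lymph nodes, reached 266 CPM there, against 35.1 CPM. Ccr7 was uneven, since 10 cells held 87.3% of its UMIs in Ctrl members. Flt3, Zbtb46 and Cd209a stood at 1.68, 8.41 and 5.04 CPM in the range with 4 or more. The summed dendritic marker list reached 967 CPM there, against 799 CPM in all Ctrl members, 408 CPM without Mgl2 and 2335 CPM in the dendritic cells. The last sum includes Flt3 and Cd209a, on which the dendritic cells were picked. Genes outside that choice went both ways. Ctrl dendritic cells had Cst3, Plet1 and Ccr7 levels of 7412, 668 and 220 CPM, not far from the range with 4 or more. Zbtb46 (43.5 CPM) and Apoe (88.4 CPM) lay further from it. In BiDT the 10 cells with 4 or more UMIs held 20 UMIs of Ccl17, 0 of Plet1 and 0 of Ccl22.

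**Figure D2:**
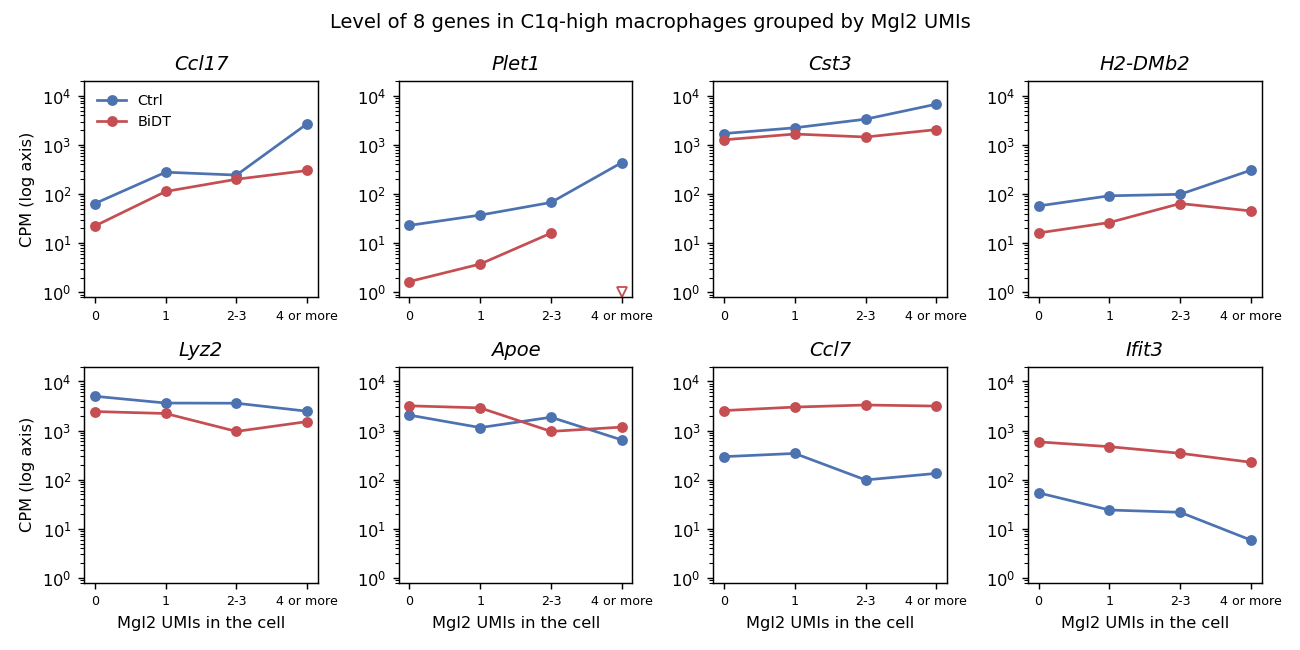
CPM (vertical axis, logarithmic) of 8 genes in C1q-high macrophages with 0, 1, 2 to 3 and 4 or more Mgl2 UMIs (horizontal axis), one line per library, with an open triangle for 0 UMIs. Ccl17, Plet1, Cst3 and H2-DMb2 are highest in Ctrl cells with 4 or more, and the lines of Ccl7 and Ifit3 lie higher in BiDT in every range.

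Treated against control, 6052 genes had at least 50 UMIs over both sets of members. A gene was called when its CPM differed at least 1.5-fold. By that rule 1054 genes (17.4%) were higher and 958 (15.8%) lower in BiDT, 33.2% in all, and 832 and 620 of these had a 95% counting interval that excludes equality. The split depends on the scaling. Scaling by the trimmed mean of M-values (TMM) lowers every log2 ratio by 0.16 and gives 725 higher and 1364 lower genes, so that higher calls are 34.7% of all calls instead of 52.4%. Gene lists are read below against the shares of 17.4% and 15.8%, and the ratio in each sentence is log2 of BiDT over Ctrl.

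**Figure D3:**
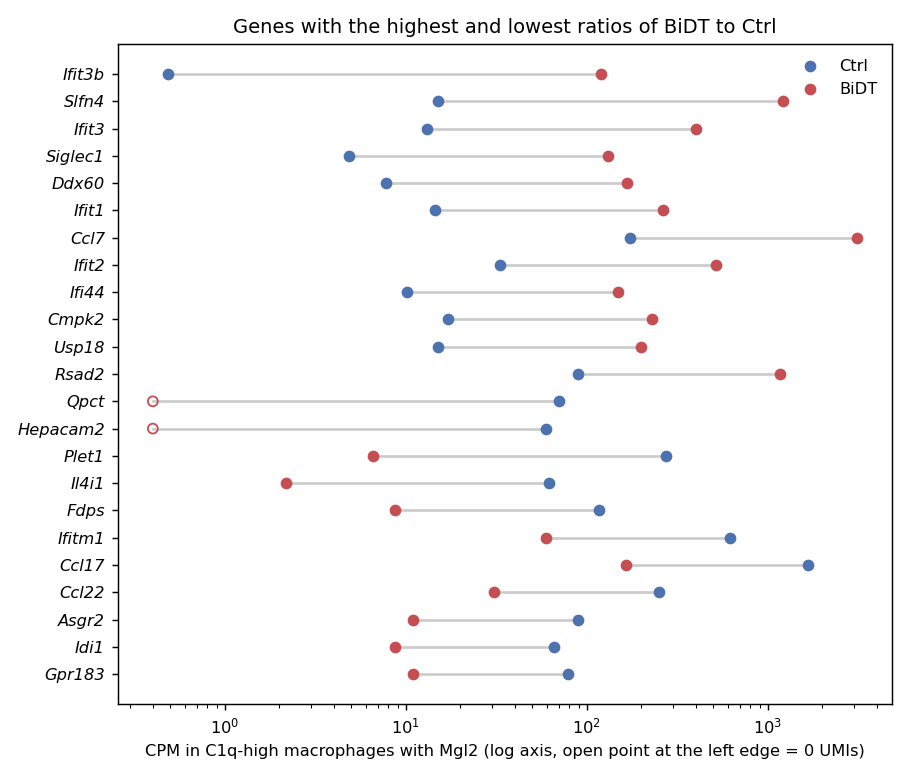
CPM in members (horizontal axis, logarithmic) of genes with the highest and lowest ratios of BiDT to Ctrl, one point per library, with an open point for 0 UMIs. Interferon-induced genes and Ccl7 are among the highest, and Ccl17, Ccl22, Plet1, Fdps and Idi1 among the lowest.

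The listed type I interferon genes were higher in BiDT throughout. Interferons of that type bind IFNAR, and the transcription factor complex ISGF3 then binds a short element in the promoters of its target genes. All 29 measured genes of the list were higher (17.4% of all genes were), with a median of 2.84. Within the ranges of 1, 2 to 3 and 4 or more Mgl2 UMIs the median was 2.58, 2.23 and 2.66. Slfn4, a schlafen gene of myeloid cells that is not in the list, stood at 15.05 CPM in Ctrl and 1213 CPM in BiDT, a ratio of 6.33 (5.81 to 6.90), and was found in 24 of 296 and 70 of 92 cells. Slfn4 was found in 3.61% of Ctrl and 39.5% of BiDT CD8 T cells. Ifit3, which sequesters viral RNA together with its relatives, stood at 13.1 and 401 CPM (4.93, 4.35 to 5.57). Ifit3b, a near copy that shares 24.0% of the 31-base words of the Ifit3 transcript end, had 1 UMI in Ctrl and 55 in BiDT (7.95, 5.42 to 13.3), and reads of both may have been split between them. Siglec1, the sialic acid receptor CD169 of macrophages, which is held in the checkpoint and costimulation list, stood at 4.85 and 131 CPM (4.76, 3.78 to 5.89), in 8 and 30 cells, and was near 0 in CD8 T cells at 0.703 and 5.68 CPM. Ddx60, an RNA helicase cofactor, stood at 7.77 and 166 CPM (4.42), Ifit1 at 14.6 and 263 CPM (4.17), Ifit2 at 33.0 and 519 CPM (3.97) and Ifi44 at 10.2 and 149 CPM (3.87). Cmpk2, a mitochondrial nucleotide kinase, had a ratio of 3.76, Usp18, which restrains the receptor, 3.73 and Rsad2, the antiviral enzyme viperin, 3.69. Among the least changed of the list were Ifitm3 (0.90), Ly6e (0.93) and Irf9 (1.57). Ifitm1, a relative of Ifitm3 that is not in the list, was lower in BiDT (-3.39) and is described below. The library difference in these genes is not particular to the members, since the list's median was 1.99 in C1q-high cells without Mgl2 and 3.11 in Arg1-high cells.

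Promoters of the leading genes are shown because their genes moved together. The core of the interferon-stimulated response element was searched as GAAA, any 2 bases and GAAA on both strands in the 250 bases before the RefSeq gene start (GRCm38.p6). It occurred in 9 of the 20 measured type I interferon genes with an entry and in 936 of 27025 genes overall (3.46%). The share was larger in the interferon gamma and GTPase list, 10 of 13, although that list differed less between the libraries. Of the genes named here, Ifit3, Ifit3b, Ddx60 and Ifit1 held 2 matches, Rsad2 and, among those lower in BiDT, Asgr2 held 1, and Slfn4, Ifit2, Ifi44 and Cmpk2 held 0 in this window. The Ccl17 window held 1 match to TTC, any 4 bases and GAA, searched in the same way, a spacing known for STAT6, which carries the interleukin 4 signal, and 6.76% of all genes held that motif. One of the 2 Ifit2 windows also held it, and the Ccl22 window did not. Matches of either motif are in capitals, sequences run 5′ to 3′ on the strand of the gene, and no match shows that a factor binds.
Ifit3 (chr19:34583279-34583528, plus strand): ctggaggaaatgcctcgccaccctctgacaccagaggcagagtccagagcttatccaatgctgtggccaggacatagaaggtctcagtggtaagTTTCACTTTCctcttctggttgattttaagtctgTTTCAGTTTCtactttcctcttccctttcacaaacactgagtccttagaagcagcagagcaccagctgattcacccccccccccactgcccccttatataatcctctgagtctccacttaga
Ddx60 (chr8:61927837-61928086, plus strand): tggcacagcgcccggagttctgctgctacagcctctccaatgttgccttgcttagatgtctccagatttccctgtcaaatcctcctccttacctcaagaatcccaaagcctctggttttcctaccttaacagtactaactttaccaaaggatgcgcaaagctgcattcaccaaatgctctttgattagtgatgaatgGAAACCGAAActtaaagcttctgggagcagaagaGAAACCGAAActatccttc
Rsad2 (chr12:26456453-26456702, minus strand): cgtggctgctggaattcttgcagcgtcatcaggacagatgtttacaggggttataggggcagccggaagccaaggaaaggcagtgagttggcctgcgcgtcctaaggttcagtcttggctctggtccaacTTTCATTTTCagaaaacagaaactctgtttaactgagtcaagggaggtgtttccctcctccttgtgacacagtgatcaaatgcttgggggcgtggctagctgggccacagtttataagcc
Ccl17 (chr8:94810203-94810452, plus strand): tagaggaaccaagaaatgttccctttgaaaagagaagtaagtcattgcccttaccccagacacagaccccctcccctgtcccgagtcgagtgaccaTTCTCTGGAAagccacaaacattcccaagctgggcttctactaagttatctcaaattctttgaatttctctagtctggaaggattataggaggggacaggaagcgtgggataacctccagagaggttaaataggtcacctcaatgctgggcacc

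Other interferon targets divided. Of 17 measured genes of the interferon gamma and GTPase list, 12 were higher and 2 lower, with a median of 0.87, and of 0.82, 0.03 and 1.09 over the 3 ranges of Mgl2. The GTPase Irgm2 stood at 20.9 and 103 CPM (2.30) and Irgm1 at 104 and 276 CPM (1.41). Fcgr1, the high-affinity receptor for IgG, stood at 201 and 608 CPM (1.60). Cxcl9, a ligand of CXCR3 that interferon gamma induces, was lower at 1129 and 234 CPM (-2.27, -2.56 to -1.99), and was found in 174 of 296 and 29 of 92 cells. Its relative Cxcl10 was higher at 465 and 816 CPM (0.81). The second lower gene was Ciita, the master regulator of class II genes, at 121 and 65.7 CPM (-0.89).

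Of the chemokine list, 11 of 17 measured genes were higher and 4 lower, with a median of 1.11. Ccl17 (-3.35) and Ccl22 (-3.03) are not in this count. They are held in the alternative activation list and described below, and Ccl8 is in both lists. Over the 3 ranges of Mgl2 the median of the chemokine list was 0.71, 0.75 and 0.45, the last under the 1.5-fold limit. Ccl7, Ccl12, Ccl2 and Ccl8, which attract monocytes, were all higher. Ccl7 stood at 173 and 3115 CPM (4.17), and was found in 85 of 296 Ctrl members and 73 of 92 BiDT members. After thinning to 1000 UMIs the shares of cells with Ccl7 were 10.8% and 60.9%, against 4.72% and 13.3% in CD8 T cells. Ccl7 was higher in every range of Mgl2, by 3.14, 5.07 and 4.55. Ccl12 stood at 97.1 and 792 CPM (3.03) and Ccl2 at 407 and 1793 CPM (2.14). Ccl8 stood at 106 and 757 CPM (2.84), but 10 cells held 87.6% of its UMIs in Ctrl and 91.6% in BiDT, and in cells with 2 to 3 Mgl2 UMIs its ratio was -0.32. The macrophage inflammatory proteins Ccl3 and Ccl4 were higher by 1.85 and 1.84, the platelet factor Pf4 by 1.60. Lower beside Cxcl9 were Ccl24, a ligand of the eosinophil receptor CCR3, at 150 and 37.2 CPM (-2.02), and the neutrophil attractants Cxcl1 (-1.28) and Cxcl2 (-0.60).

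Ccl17 and Ccl22, the pair that binds CCR4, were lower in BiDT, and most of their Ctrl UMIs lay in cells rich in Mgl2. Ccl17 stood at 1673 CPM in Ctrl and 164 CPM in BiDT (-3.35, -3.70 to -3.02). Ccl17 was found in 124 of 296 Ctrl and 9 of 92 BiDT members, and in 7.31% and 1.92% of CD8 T cells. Within the ranges of 1, 2 to 3 and 4 or more Mgl2 UMIs the ratio of Ccl17 was -1.30 (-1.93 to -0.72), -0.28 (-0.97 to 0.36) and -3.16 (-3.88 to -2.53). Ccl22 stood at 251 and 30.6 CPM (-3.03, -3.91 to -2.27), with 474 of its 517 Ctrl UMIs in cells with 4 or more Mgl2 UMIs, and in cells with 2 to 3 the counts were 7 and 5. Other genes were among the lowest ratios too. Plet1 had 566 UMIs in Ctrl, 521 of them in cells with 4 or more, and 3 in BiDT (-5.39, -7.67 to -3.83). Its ratio was -3.31 with 1 Mgl2 UMI and -2.07 with 2 to 3, and with 4 or more its bound was -3.27. Il4i1, an amino acid oxidase that interleukin 4 induces, had 128 UMIs in 26 cells and 1 (-4.83, -10.1 to -2.32). Of its Ctrl UMIs 114 lay in cells with 4 or more Mgl2 UMIs, where the bound on log2 was -1.08. Qpct, glutaminyl cyclase, had 144 UMIs in 76 Ctrl cells and 0 in BiDT, at least 10.6-fold lower against a floor of 3 counts over the group. Hepacam2, an adhesion protein, had 123 and 0 UMIs, at least 9.09-fold lower. These pooled bounds rest on cells rich in Mgl2, which gave 119 of the Qpct and 92 of the Hepacam2 UMIs in Ctrl. Within the ranges of 1, 2 to 3 and 4 or more Mgl2 UMIs the bound on log2 was -0.81, -0.68 and -1.14 for Qpct. For Hepacam2 it was -2.16 with 1 and -0.77 with 4 or more, and with 2 to 3 the counts of 8 and 0 set no bound below 0. Ifitm1 stood at 618 and 59.1 CPM (-3.39, -3.995 to -2.84), with 600.2 and 564 CPM in CD8 T cells, and shares 26.6% of its transcript-end words with other genes. The ratio of Ifitm1 was -1.81, -2.85 and -4.80 over the 3 ranges of Mgl2. Asgr2, a subunit of the asialoglycoprotein receptor, stood at 88.8 and 10.9 CPM (-3.02), but 10 cells held 80.9% of its Ctrl UMIs, and its direction turned with the range of Mgl2. Asgr2 had 3 and 3 UMIs in cells with 1 Mgl2 UMI (0.78, -2.12 to 3.68), 4 and 1 with 2 to 3 (-0.27, -5.89 to 3.07) and 176 and 1 with 4 or more (-3.29, -8.61 to -0.80). Gpr183, the receptor for oxysterols that positions immune cells, stood at 78.1 and 10.9 CPM (-2.84), with 82.1 and 70.5 CPM in CD8 T cells.

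The list of alternative activation and interleukin 4 response genes had no common direction, with 3 of 17 measured genes higher, 7 lower and a median of -0.05. Lower beside Ccl17 and Ccl22 were the transcription factor Irf4, with 59 and 3 UMIs (-2.12, -4.44 to -0.51), and Fn1 (-2.11, -2.53 to -1.72). Of the Ctrl UMIs of Irf4, 45 lay in cells with 4 or more Mgl2 UMIs. In cells with 2 to 3 its counts were 5 and 3 UMIs, at 12.05 and 24.0 CPM. The ratio of Fn1 was -3.24, -1.78 and -0.86 over the 3 ranges of Mgl2. Higher were Ccl8 and F13a1, coagulation factor XIII, at 24.3 and 114 CPM (2.23), of which 10 cells held 98.1% of the BiDT UMIs. Clec10a, the gene of CD301a and a close relative of Mgl2, stood at 49.99 and 129 CPM (1.37, 0.88 to 1.85), higher where Mgl2 was lower, and its ratio was 1.82, 0.15 (-0.98 to 1.17) and 1.93 over the 3 ranges. The transcript ends of the pair share words (21.8% of those of Clec10a), so a part of the reads could have been split between them. Clec10a was found in 59 of 296 and 20 of 92 members, with 83.1% of the BiDT UMIs in 10 cells. Mrc1 differed by 0.55 (0.27 to 0.82) and Stab1, a scavenger receptor, by 0.55, both under the 1.5-fold limit.

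Class II antigen presentation was lower and class I higher. Of 10 measured class II genes 9 were lower (15.8% of all genes were) and 0 higher, with a median of -1.22. This was not particular to the members. In C1q-high cells without Mgl2 10 were lower, with a median of -1.45, and in Arg1-high cells the median was -1.44. H2-Eb1 stood at 7938 and 2962 CPM (-1.42, -1.50 to -1.34), H2-Aa at 9135 and 4483 CPM (-1.03) and H2-Ab1 at 11148 and 6227 CPM (-0.84). The invariant chain Cd74 stood at 18897 and 10272 CPM (-0.88). H2-DMb2 stood at 217 and 39.4 CPM (-2.46, -3.23 to -1.79), whereas H2-DMb1, the alternative beta chain of the class II loading factor, was at -0.56. These 2 genes share 35.0% of the transcript-end words of H2-DMb1. H2-Oa was at -1.69, and H2-Ob had 57 and 1 UMIs (-3.66, -8.99 to -1.12). With genes at 0 UMIs set at their bound, the class II median was -0.98, -0.91 and -0.54 in the ranges of 1, 2 to 3 and 4 or more Mgl2 UMIs. The ratio of H2-DMb2 was -1.81, -0.62 (-1.93 to 0.49) and -2.76 over these ranges. Of 19 measured class I and peptide loading genes 11 were higher and 0 lower, with a median of 0.80. H2-K1 stood at 2735 and 7168 CPM (1.39) and the nonclassical H2-T22 at 133 and 687 CPM (2.36). H2-Q6 stood at 157 and 628 CPM, and H2-Q4 and H2-Q7 had ratios of 1.95 and 1.58, but they are near copies, with 59.6% of the words of H2-Q6 in other genes. The loading chaperone Calr was at -0.55 and the immunoproteasome subunit Psmb8 at -0.06. In the checkpoint and costimulation list 6 of 16 genes were higher, Siglec1 among them, and 2 lower. Slamf7, a receptor of activated macrophages, stood at 91.2 and 486 CPM (2.41), Cd40 at 82.5 and 219 CPM (1.41) and Lgals9, a ligand of TIM3, at 57.3 and 173 CPM (1.59). Cd274, which encodes PD-L1, was at 191 and 341 CPM (0.84), Pdcd1lg2, which encodes PD-L2, at 110 and 56.9 CPM (-0.95) and Havcr2, which encodes TIM3, at 125 and 112 CPM (-0.17, -0.63 to 0.27).

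**Figure D4:**
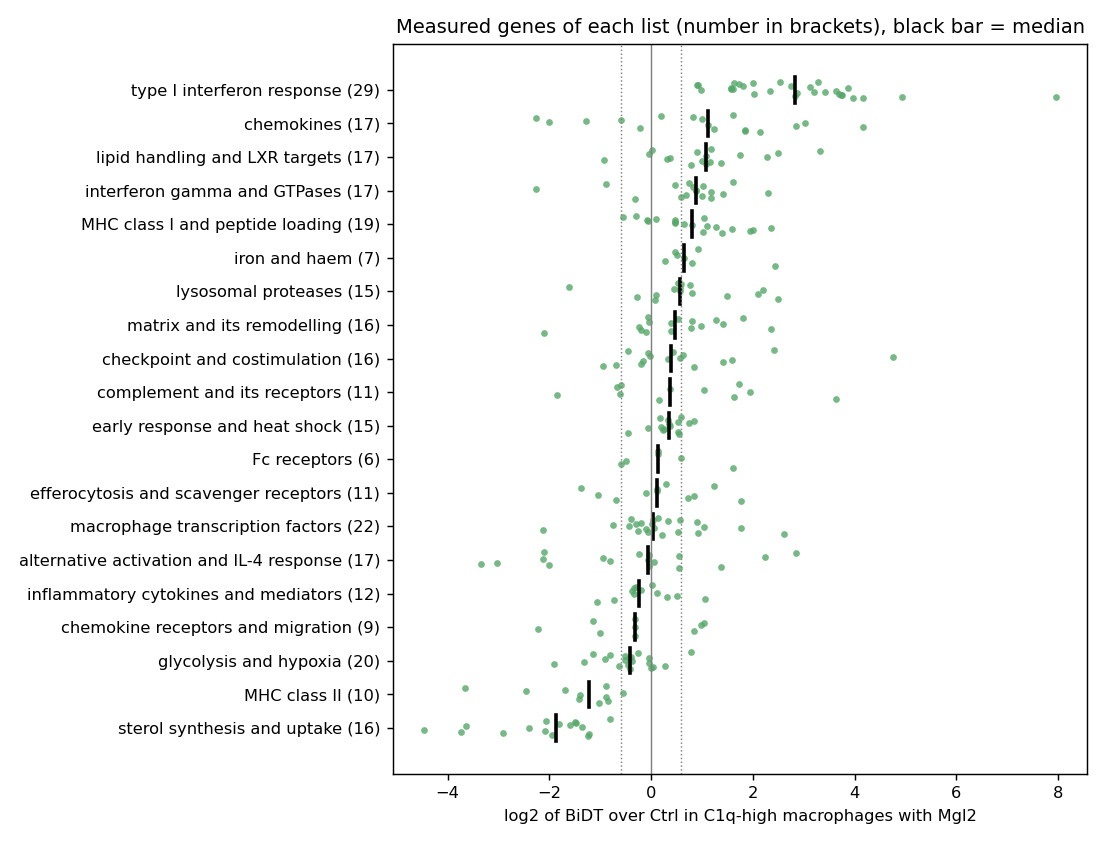
log2 of BiDT over Ctrl (horizontal axis) for the measured genes of each list (1 point each, genes at 0 UMIs at their bound), with the list's median as a black bar and dotted lines at 1.5-fold. All points of the type I interferon list lie right of the upper line, all points of the sterol list left of the lower line, and most other lists have points on both sides.

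Sterol synthesis genes were lower and genes of lipid storage and efflux higher. SREBP2 drives the first set when cells are short of cholesterol, and LXR drives efflux genes when sterols are plentiful. All 16 measured genes of synthesis and uptake were lower (15.8% of all genes were), with a median of -1.88. Over the 3 ranges of Mgl2, with genes at 0 UMIs set at their bound, the median was -1.75, -1.16 and -1.50, limits that understate the difference where such genes are many. All 16 were also lower in C1q-high cells without Mgl2 (median -1.49), and the median in Arg1-high cells was -1.78. Fdps, farnesyl diphosphate synthase, stood at 117 and 8.76 CPM (-3.74, -5.63 to -2.36), found in 118 of 296 and 4 of 92 cells, with 47.0% of its transcript-end words also in a predicted gene. The epoxidase Sqle had 99 and 1 UMIs (-4.46, -9.77 to -1.94) and the isomerase Idi1 135 and 4 (-2.90, -4.80 to -1.51). BiDT counts of these genes were small, at most 4 UMIs for any gene named in these sentences, so the sizes are loose. Of 17 measured genes of lipid handling 12 were higher and 1 lower, with a median of 1.08. Over the 3 ranges of Mgl2 the lipid median was 1.14, 0.40 and 0.91. Ch25h, which makes an oxysterol that blocks SREBP2 and is itself induced by interferon, stood at 34.9 and 348 CPM (3.32, 2.91 to 3.74). Nr1h3, which encodes LXR alpha, stood at 19.9 and 112 CPM (2.49), the lipid droplet protein Plin2 at 194 and 932 CPM (2.27) and the cholesterol exporters Abcg1 and Abca1 had ratios of 1.74 and 1.09. Apoe stood at 1003 and 2119 CPM (1.08), Fabp5 was at 1.15 and Trem2, a lipid receptor of macrophages, at 138 and 239 CPM (0.79). Apoe turned with the range of Mgl2. It stood at 1150 and 2897 CPM with 1 Mgl2 UMI and at 645 and 1177 CPM with 4 or more. With 2 to 3 Mgl2 UMIs Apoe was lower in BiDT, at 1870 and 962 CPM (776 and 120 UMIs). Cd9 was the gene on the lower side, at 467 and 245 CPM (-0.93). The lipid median was 0.48 in C1q-high cells without Mgl2, where 6 genes were higher.

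Several lysosomal proteases and iron genes were higher, and the transcription factors as a list were not. Of 15 lysosomal genes 7 were higher and 1 lower, with a median of 0.57. The cathepsins Ctsb and Ctsl stood at 677 and 3793 CPM (2.49, 2.38 to 2.59) and at 217 and 926 CPM (2.09), and the asparagine endopeptidase Lgmn at 500.4 and 2309 CPM (2.21, 2.08 to 2.33), found in 231 of 296 and 90 of 92 cells. The ratio of Ctsb was 2.45, 1.87 and 2.24 over the ranges of Mgl2. Cst3, which inhibits these proteases, stood at 5076 and 1664 CPM (-1.61, -1.72 to -1.50), and its ratio was -0.42, -1.21 and -1.72 over those ranges. Hmox1, heme oxygenase, stood at 104 and 567 CPM (2.44), with 72.6% of the BiDT UMIs in 10 cells, and 4 of 7 iron and heme genes were higher. The transcription factors Maf (51.4 and 313 CPM, 2.60), Klf2 (1.76) and Klf6 (1.05) were among 5 of 22 that were higher, near the 17.4% of all genes, Irf4 and Mef2c (-0.74) were the 2 lower, and the median was 0.04. Of 11 scavenger and efferocytosis genes 4 were higher and 3 lower. The engulfment receptor Mertk stood at 31.1 and 105 CPM (1.76), its relative Axl at 389 and 241 CPM (-0.69) and the bridging protein Mfge8 was at -1.39. Mfge8 turned with the range of Mgl2. It stood at 39.5 and 60.2 CPM with 1 Mgl2 UMI, 28.9 and 40.1 CPM with 2 to 3 and 223 and 60.4 CPM with 4 or more. Its BiDT counts in these ranges were 16, 5 and 4 UMIs. Complement genes beside C1q had 5 of 11 higher and 4 lower, with a median of 0.36, and of 0.04, 0.27 and 0.93 over the ranges of Mgl2. Higher were C4b (17 and 47 UMIs, 3.64, partly shared with C4a), the anaphylatoxin receptors C3ar1 (106 and 407 CPM, 1.94) and C5ar1 (1.03), Cd93 (1.73) and factor B, Cfb (1.62, with 76.5% of its words in other genes), and among the lower were Itgax (-0.67), properdin, Cfp (-0.62), and Itgb2 (-0.60). The lower level of Itgax was not shared by cells with 2 to 3 Mgl2 UMIs (417 and 433 CPM). In the matrix list 7 of 16 were higher, led by the collagenase Mmp13 (49.0 and 252 CPM, 2.36) and Ecm1 (1.80), and Fn1 alone was lower.

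Inflammatory and glycolytic genes differed less. Of 12 measured cytokines and mediators 1 was higher, the receptor antagonist Il1rn at 709 and 1475 CPM (1.06), and 2 were lower, Il1a (-1.06) and Il1b at 5599 and 3382 CPM (-0.73). The median of the list was -0.24, and -0.68, 0.12 and -0.45 over the ranges of Mgl2, the last with genes at 0 UMIs at their bound. Tnf was at 0.30, Il6 at 0.52 (-0.18 to 1.17) and Osm, oncostatin M, at 0.11. Of 20 glycolysis and hypoxia genes 1 was higher and 6 were lower. The median of the list, -0.43, turned with the range of Mgl2 (-0.62, -0.33 and 0.28), and the lower genes were led by Aldoc (-1.91), Gapdh (-1.32) and the oxygen sensor Egln3 (-1.14). Of 9 chemokine receptor and migration genes 3 were higher and 3 lower. Their median was -0.32, and turned with the range of Mgl2 (-0.54, 0.51 and 0.17, with genes at 0 UMIs at their bound). Ccr2 (394 and 197 CPM) and Ccr7 (164 and 35.0 CPM, -2.23) were on the lower side, Cmklr1 (1.04) and Cxcr4 (0.97) on the higher. Ccr7 turned with the range of Mgl2, at 35.1 and 60.2 CPM in cells with 1 Mgl2 UMI (16 UMIs in each library). With 2 to 3 it stood at 12.05 and 0 CPM, and with 4 or more at 266 and 0 CPM. Of 6 Fc receptor genes 1 was higher, Fcgr1, and 1 lower, the inhibitory Fcgr2b (-0.59). Early response and heat shock genes, which tissue digestion can induce, had 2 of 15 higher, Hspa1b (0.85) and Dusp1 (0.74), 0 lower and a median of 0.35.

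Genes of other cells moved with the library as well. The dendritic cell list stood at 799 CPM in Ctrl and 442 CPM in BiDT members, lower together with Ccl17, Ccl22, Cst3 and the class II genes. Its largest falls were in Itgax (429 and 269 CPM) and Ccr7 (164 and 35.0 CPM). Tcf4 (84.9 and 107 CPM) and Xcr1 (2 and 8 UMIs) went the other way. Itgax was lower mainly in cells with 1 Mgl2 UMI, at 316 and 154 CPM. It stood at 417 and 433 CPM with 2 to 3 and at 477 and 422.5 CPM with 4 or more. Cd209a, Fscn1 and Siglech were at 0 in BiDT, but had only 12, 19 and 11 UMIs in Ctrl, so these zeros say little. The median mitochondrial share was 1.60% and 0.567%. The summed NK cell list stood at 26.7 CPM in Ctrl members and 299.9 CPM in BiDT members, with Ncr1 at 0 in both and Gzmb at 6.795 and 123 CPM, against 1594 and 3814 CPM in NK cells. The neutrophil list stood at 68.4 and 206 CPM, the T cell list at 213 and 280 CPM with Cd3d, Cd3e and Cd3g at 0 by the rule. The tumour or stromal list stood at 79.6 and 107 CPM. Single genes made up much of these sums. Il7r gave 193 and 214.5 CPM of the T cell sum, and Pecam1 gave 22.3 and 74.4 CPM of the tumour or stromal sum. Ly6g, Camp, Krt8 and Krt18 were at 0 in members of both libraries, which says little. In neutrophils Ly6g stood at only 12.5 and 14.4 CPM and Camp at 4.18 and 3.14 CPM. In stromal cells chosen by Sparc, Krt8 stood at 0.197 and 1.05 CPM and Krt18 at 0. The monocyte list stood at 1043 and 1434 CPM, the list of tissue-type macrophages at 40.3 and 171 CPM. B or plasma cell and mast cell lists were at 8.76 CPM or less. A UMI of Nkg7, Gzmb, Gzma, Ccl5, Cd2 or Trbc2 was absent from 191 of 296 Ctrl but 28 of 92 BiDT members, and in those cells the interferon median was 2.41. Malat1, a nuclear RNA, stood at 3497 and 6063 CPM. Of the members, 13 in Ctrl and 3 in BiDT had a doublet score of 0.15 or more. The part of free RNA, attached cells and nuclear RNA in the differences was not tested.

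Within each library, members were set beside the C1q-high macrophages without Mgl2, which is a description, since Mgl2 drew the line between them. Few of the genes that differed did so in both libraries. Members were also deeper, with medians of 6249.5 and 4476.5 UMIs against 4722 and 3426. Of 6302 genes with at least 50 UMIs in each library, 253 (4.01%) were at least 1.5-fold higher and 426 (6.76%) lower in Ctrl, and 387 (6.14%) higher and 610 (9.68%) lower in BiDT. Higher in both libraries were 56 (0.889%) and lower in both 94 (1.49%). The ratios in this paragraph and the next are log2 of members over cells without Mgl2, first in Ctrl and then in BiDT. Ccl17 led, at 4.71 (4.44 to 4.99) and 2.88 (2.35 to 3.41), with 64.1 and 22.4 CPM in the cells without Mgl2. Il1r2, the decoy receptor of interleukin 1, was higher by 2.11 and 1.29, standing at 877 and 250 CPM in members. The lectin receptor Klrb1b was higher by 1.63 and 2.16, Mfge8 by 1.17 and 2.35 and Olfm1 by 1.09 and 1.16. Pdcd1lg2 was higher by 1.15 and 0.87, Socs2, a brake on cytokine signals, by 0.85 and 0.92, Mmp25 by 0.88 and 1.92 and Tbrg1 by 0.84 and 0.92. The elastase Mmp12 was higher by 1.43 and 1.04, but in BiDT cells with 3000 to 8000 UMIs its ratio was -0.10.

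Among the genes lower in members in both libraries was Ly6c2, a surface antigen of inflammatory monocytes. Its ratio was -2.15 (-2.34 to -1.97) and -1.07 (-1.24 to -0.91), at 154 and 692 CPM in members against 684 and 1454 CPM without Mgl2, with 56.6% of its words in other genes such as Ly6c1. In BiDT the lower level of Ly6c2 was not a lower share of cells, since it was found in 71.7% of members and 56.7% of cells without Mgl2, and in 48.3% and 47.5% after thinning to 2000 UMIs. Thinned to 1000 UMIs, the BiDT ratio of Ly6c2 was -0.46, under the 1.5-fold limit. Plac8 was at -1.83 and -1.37, Thbs1, thrombospondin, at -1.20 and -1.01, Chil3 at -1.60 and -0.93 and Tgm2, a transglutaminase, at -1.09 and -0.82. The BiDT call was lost for Chil3 with at least 20 C1q UMIs (-0.018) and for Tgm2 when thinned to 1000 UMIs (-0.34). Cxcl10 was at -0.99 and -0.86, Ms4a7 at -1.25 and -0.84, Selenom at -1.24 and -0.87, Sash1 at -1.09 and -0.99 and Lrmda at -0.97 and -1.17, the last at -0.37 in BiDT cells with 3000 to 8000 UMIs. Of 27 type I interferon genes measured in both libraries, 19 were lower in Ctrl members (median -0.94) and 0 in BiDT members (median -0.25), and 0 were higher in either. Class II genes had a median of 0.40 in Ctrl, with 2 of 8 higher, and 0.92 in BiDT, with 7 of 8 higher. In the BiDT library H2-Eb1 stood at 2962 CPM in members, 1533 CPM in cells without Mgl2 and 4660 CPM in Flt3 and Cd209a dendritic cells. Complement genes had a median of -0.64 in Ctrl, with 6 of 10 lower, and -0.02 in BiDT.

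**Figure D5:**
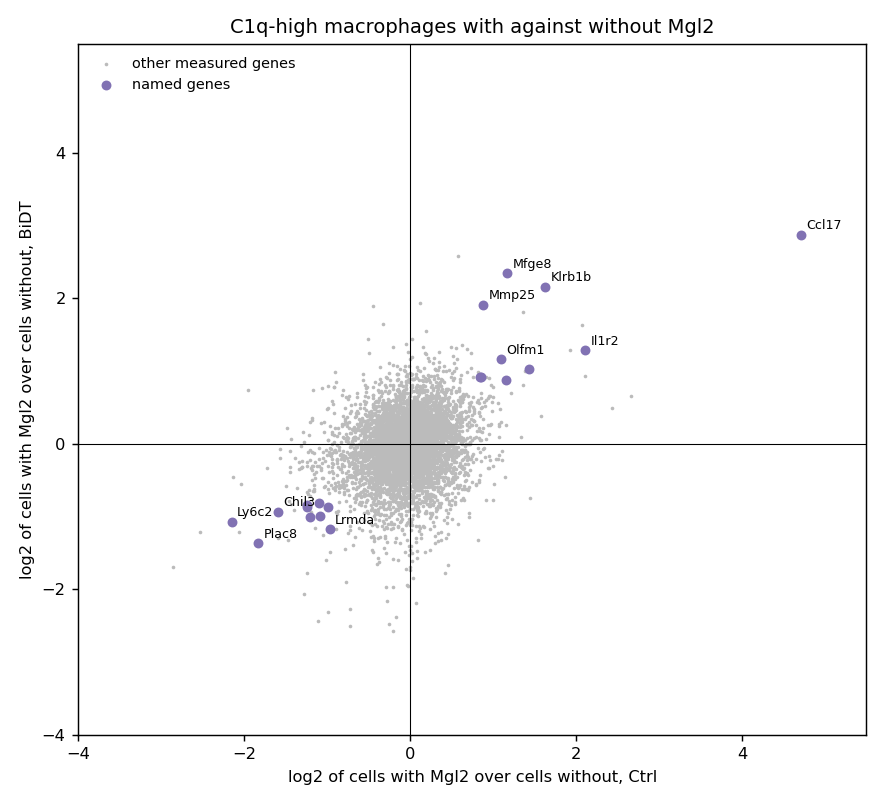
log2 of members over C1q-high macrophages without Mgl2 for each measured gene, in Ctrl (horizontal axis) and BiDT (vertical axis), with the 20 named genes in purple, 10 of them labelled, and the genes of the rule left out. Ccl17 stands far to the upper right at 4.71 and 2.88, and Ly6c2 and Plac8 lie at the lower left.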

How the data were processed

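For 32589 genes the authors deposited UMI counts by barcode, whole numbers without normalization. Cell Ranger 7.1.0 and GRCm39 are named in the submitters' processing notes, and a 10x Genomics workflow per the labels' protocols. The barcodes have another form than that tool writes, so the counting step is uncertain. The annotation release and strand are not stated, and no coordinates are taken from the files.

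Members, comparison cells and gene lists were chosen with earlier results of these data known, and lists are described by counts and medians only. The genes named are the 12 highest and 12 lowest ratios among genes with at least 50 UMIs, at least 50 CPM in 1 library and an interval that excludes equality, outside the rule and outside the free-RNA range (below 10% of another class in both libraries), up to 4 genes on either side of each list, the cells' markers, and the 10 genes highest and lowest against cells without Mgl2. Some items are not reported here. A few others were chosen after their values were seen. Counts were summed per library and scaled by their total. Ratios have exact conditional binomial 95% intervals and shares exact (Clopper-Pearson) ones. Doublets were scored with Scrublet (scanpy 1.11.5, expected rate 5%), whose own threshold marked 0 cells and had thus not worked. Members scoring 0.15 or more, a value set after scores had been seen, were left out as an alternative. The share of 31-base words in the transcript ends of GENCODE genes (GRCm38) marked near copies. Promoter sequences are from RefSeq (GRCm38.p6), with an entry for 18 of the 24 genes of the highest and lowest ratios. Of 437 listed genes 5 were absent from the files. Python 3.11.15, numpy 2.4.6, scipy 1.17.1 and pandas 2.3.3 were used. The ratio and interval code was tested on simulated data.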

Additional observations from a re-analysis of the deposited data

How the results depend on the processing

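No paired analysis was possible because each group is 1 library, and no replicate could be left out. The shares, medians and counts of calls were recomputed under the alternatives. TMM and median-of-ratios factors were computed in Python after the definitions of edgeR and DESeq2. Cells with exactly 1 Mgl2 UMI, cells with 3000 to 8000 UMIs and cells without shared barcodes were alternatives chosen after seeing the data. Of the summary values, 274 stayed within the interval or within 1.5 times the count, 43 moved and 1 reversed, a change of sign being counted as a reversal only where the interval of the value in all members excludes 0. That was the complement median, 0.36 in all members and -0.082 in cells with exactly 1 Mgl2 UMI, where fewer genes reached 50 UMIs (on the full set of genes the report gives 0.04 for these cells, and likewise 2.58 for type I interferon), and it was 0.055 thinned to 1000 UMIs, 0.68 with at least 2 Mgl2 UMIs and 0.63 with at least 20 C1q UMIs. The log2 ratio of the share of filtered cells moved to -2.38 when thinned to 1000 UMIs and -2.58 with at least 2 Mgl2 UMIs, and that of the share with Mgl2 among C1q-high cells to -2.35 and -2.57. Counts of genes higher and lower in BiDT were 249 and 298 when thinned, 465 and 458 with exactly 1 Mgl2 UMI, 634 and 603 in cells with 3000 to 8000 UMIs, 1722 and 1489 with a minimum of 20 UMIs per gene and 313 and 333 with 200, since fewer or more genes were measured. The type I interferon median was 2.21 thinned, 2.14 with at least 2 Mgl2 UMIs, 2.41 without lymphoid UMIs, 2.47 with exactly 1 Mgl2 UMI and 2.54 with 200 UMIs per gene. With at least 2 Mgl2 UMIs the medians were 0.55 for interferon gamma and GTPases, 0.68 for lipid handling, 0.12 for inflammatory mediators and -0.065 for glycolysis. With exactly 1 they were -0.35 for efferocytosis (0.12 in all members), 0.74 for chemokines and -0.61 for inflammatory mediators, and the median log2 ratio, inflammatory cytokines and mediators, was 0.039 with 20 UMIs per gene. Chemokines had 1.47 with at least 20 C1q UMIs and 1.58 without lymphoid UMIs, where iron and heme had 0.21. The class I median was 0.87 in cells with 3000 to 8000 UMIs and 0.91 with 200 UMIs per gene, and the lysosomal median 0.41 under both TMM and median-of-ratios scaling. These scalings lower every ratio by 0.16, which turns the efferocytosis, Fc receptor and transcription factor medians below 0. Against cells without Mgl2, 192 genes were lower in both libraries with at least 2 Mgl2 UMIs, 36 higher in cells with 3000 to 8000 UMIs, 14 higher and 39 lower when thinned and 154 higher and 184 lower with a minimum of 20 UMIs. Of single-gene values 495 stayed, 103 moved and 1 reversed, Mmp12 in BiDT (-0.10). The causes were not tested. In BiDT 92 cells and 456869 UMIs limit the precision, and genes with few BiDT counts have wide intervals.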
